A study of Mus musculus with 12 samples.

Results

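The mRNAs of 9 proteins that hold the endoplasmic reticulum (ER) and mitochondria together or pass calcium between them were followed from mouse liver lysate into the fraction of mitochondria wrapped by ER. The genes were taken by symbol from the deposited tables, where all 9 of them were found among 35498 genes. On the ER side are Itpr1, Itpr2 and Vapb. On the mitochondrial side are Mfn1, Mfn2, Rmdn3, Vdac1, Vdac2 and Vdac3. Mfn2 is also known from the ER surface, so its side here is that of its main location.

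All libraries came from liver of male C57BL/6N mice aged 9 to 12 weeks, unmodified as far as the labels say, sampled in the fed state 3 h after a meal that ended an overnight fast. A lysate without nuclei and debris was made from 1 g of liver of each of 6 mice, and wrappER-associated mitochondria (WAM), which are mitochondria recovered with the rough ER sheets curved around them, were prepared from that lysate. Each mouse gave 1 lysate and 1 WAM library, so the fractions form 2 groups of 6. The comparison asks which of these mRNAs travel with ER-wrapped mitochondria.

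Contacts between ER and mitochondria rest on pairs of proteins that bind each other across a narrow cytosolic gap. Vapb, an ER membrane protein, binds Rmdn3 (also called PTPIP51) of the outer mitochondrial membrane, and the mitofusins Mfn1 and Mfn2 are GTPases that join outer membranes to each other and, for Mfn2, to the ER. The inositol trisphosphate receptors Itpr1 and Itpr2 release calcium from the ER next to the voltage-dependent anion channels Vdac1, Vdac2 and Vdac3, through which calcium and metabolites cross the outer membrane. In hepatocytes, hormones that raise inositol trisphosphate act through these receptors, and Itpr2 is a main liver form. The proteins are known at these sites; what was measured here is where their mRNAs were recovered.

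Total estimated counts were 7400274 to 12024128 in lysates and 8344196 to 9712455 in WAM. Library-scaled counts (CPM) below are scaled by the trimmed mean of M values (TMM), which centres libraries on the typical mRNA, so higher and lower mean relative to that mRNA and not per liver or per mitochondrion. The 13 mRNAs encoded in mitochondrial DNA took 5.47% of TPM (length-scaled transcript abundance) in lysates and 26.3% in WAM (mean of 6 each), and TPM of all other genes share what is left. Summed hepatocyte markers were 28610 to 55280 TPM in lysates and 22690 to 53790 TPM in WAM. On the TMM scale 4 of 5 hepatocyte markers were called higher and 1 lower. Called higher were 5 of 6 Kupffer cell, 6 of 6 sinusoidal endothelial and 5 of 6 stellate cell markers, with 0 lower in these 3 lists. Of all tested genes 29.5% were called higher and 28.8% lower. The sums of these 3 lists overlapped between fractions. Sinusoidal endothelial markers were at 67.0 to 111 TPM in lysates and 60.6 to 85.9 TPM in WAM. Stellate cell markers were at 79.5 to 121 and 77.0 to 103 TPM, and Kupffer cell markers at 104 to 412 and 123 to 408 TPM. Of 4 cholangiocyte markers 1 was tested and called lower. Their sum was 2.60 to 5.20 TPM in lysates and 0.665 to 1.90 TPM in WAM. Of 3 smooth muscle markers 1 was tested and not called. Their sum was 7.58 to 9.81 TPM in lysates and 1.73 to 3.74 TPM in WAM. Mouse 5 stood apart in Kupffer cell markers, at 412 TPM in lysate and 408 TPM in WAM against at most 160 and 180 TPM in the other mice, and in neutrophil markers, at 62.4 TPM in lysate and 12.9 TPM in WAM against at most 10.4 and 2.66 TPM. In bulk RNA, fewer cells of a type and less RNA per cell cannot be told apart. The part of these cells in the results was not tested; in the fit without mouse 5 the log2 fold change of Rmdn3 stayed called, and those of the other genes are given below where the call moved.

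The 3 channels are the closest relatives in the set, so their sequences show whether reads could pass from 1 gene to another. The windows below are the 60 bases of coding sequence in which the 3 mouse genes are most alike (GENCODE M21 transcripts, sense strand, 5′ to 3′); capitals mark the positions that are not identical in all 3, and 43 of 60 are identical.
Vdac1: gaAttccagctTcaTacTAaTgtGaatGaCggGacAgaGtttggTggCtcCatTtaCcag
Vdac2: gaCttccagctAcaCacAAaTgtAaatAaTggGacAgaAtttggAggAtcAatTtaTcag
Vdac3: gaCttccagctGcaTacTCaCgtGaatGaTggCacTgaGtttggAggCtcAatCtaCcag
The windows span coding bases 568 to 627 of Vdac1 on chromosome 11, 565 to 624 of Vdac2 on chromosome 14 and 532 to 591 of Vdac3 on chromosome 8. Even here the capitals come every few bases. Over the whole aligned coding sequence, Vdac1 and Vdac2 were identical at 69.1% of bases, Vdac1 and Vdac3 at 66.0% and Vdac2 and Vdac3 at 71.5%, with longest identical runs of 17, 10 and 15 bases. No coding stretch of 31 bases, the length of the words counted here, is therefore shared among them. Of the 31-base words of Vdac3, 14.26% also occur on the same strand of another gene, most of them in the pseudogene Vdac3-ps1, which had at most 1.6 counts in any library. The share was 7.72% for Vdac1, 7.27% for Vdac2, 2.61% for Mfn1, at most 0.47% for Itpr1, Itpr2, Vapb and Mfn2, and 0 for Rmdn3.

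Of the 9 mRNAs, Rmdn3 was 2.72-fold higher in WAM than in lysate, whereas the other 8 lay between log2 fold changes of −0.20 and 0.28. In all, 3 were called higher by edgeR's quasi-likelihood test with Benjamini-Hochberg adjustment over all genes (adjusted p under 0.05), 0 were called lower and 6 were not called. Of all 11181 tested genes 58.2% were called, 29.5% higher and 28.8% lower, so 3 of 9 higher is near the background for that direction, while 3 of 9 in either direction and 0 of 9 lower are below theirs. At an unadjusted p under 0.05, edgeR had 3 higher and 1 lower. DESeq2 called 3 higher and 0 lower. Median-centred limma on log2(TPM + 1) called 1 higher and 4 lower, namely Vapb at −0.49, Mfn2 at −0.49, Vdac1 at −0.41 and Vdac2 at −0.62 (adjusted p = 0.00881, 0.00765, 0.0216 and 0.00461). These lower calls depended on the pseudocount: with TPM plus 0.1 limma called 0 lower, and with plus 5 it called 5 lower. The median of the 9 in log2 fold change was −0.00, and −0.04 without Rmdn3, beside −0.08 for all tested genes. Each of the 9 passed the filter on low counts, with 216 to 2375 counts per library. The split rests on centring at the typical mRNA: scaled to library totals the median of all genes was −1.19, and 1 of the 9 was called higher and 8 lower. With the authors' mitochondrial content coefficient, which puts the median at −3.35, all 9 were called lower.

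**Figure D1:**
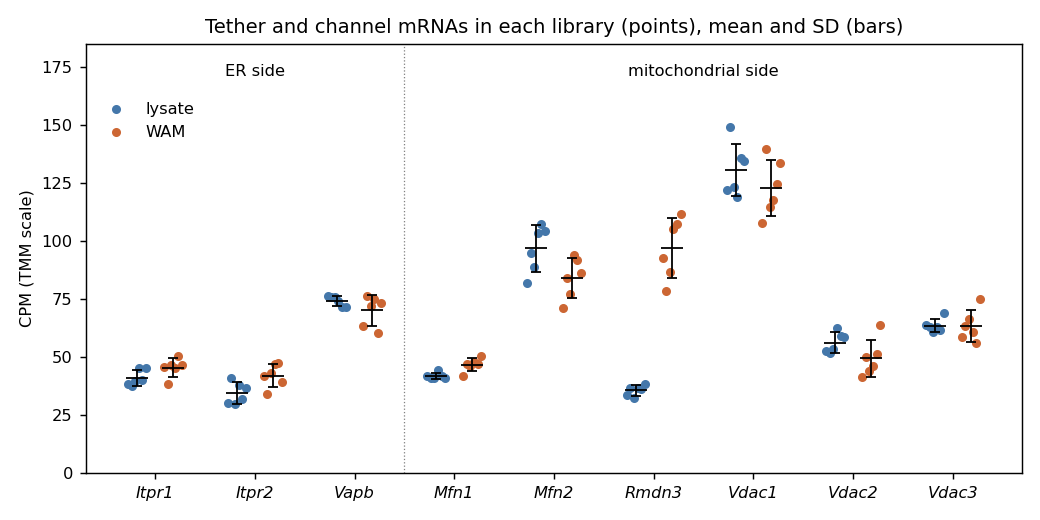
CPM on the TMM scale (vertical axis) of each of the 9 mRNAs in the 6 lysate libraries (blue) and the 6 WAM libraries (orange), with mean and SD as black bars. The WAM points of Rmdn3 lie between 78.4 and 112 CPM, above all its lysate points, and the points of the other 8 genes overlap between fractions.

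Rmdn3 (ENSMUSG00000070730, chromosome 2, 119137001 to 119157034, minus strand, GRCm38), which encodes the outer membrane partner of Vapb, was the mRNA that set the fractions apart. Its level was 32.2 CPM in the lowest, 36.4 in the median and 38.3 in the highest lysate library, and 78.4, 98.8 and 112 CPM in WAM. The groups did not overlap, which held for 1 of the 9 genes and for 34.48% of all tested genes. The means were 35.6 ± 2.2 CPM in lysate and 96.9 ± 13 CPM in WAM (SD, n = 6 each), which is 1.45 on the log2 scale (SE 0.10, adjusted p = 5.41e-08 by edgeR). The increase was seen in 6 of 6 mice, from 1.10 to 1.57 on the log2 scale. A further 532 genes had a larger log2 fold change, which puts Rmdn3 at percentile 95.2 of all tested genes. In the alternatives that centre on the typical mRNA its log2 fold change stayed positive and called, and it was also called higher with library totals, at 0.33 (adjusted p = 0.00912). With the authors' coefficient as given it was lower, at −1.85 (adjusted p = 5.31e-08).

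Vapb (ENSMUSG00000054455, chromosome 2, 173737511 to 173784336, plus strand), the ER anchor that Rmdn3 binds, was not called. Its level was 71.5 CPM in the lowest, 74.9 in the median and 76.4 in the highest lysate library, and 60.5, 72.5 and 76.3 CPM in WAM. The groups overlapped, with WAM libraries 1 and 5 below all lysates. The log2 fold change was −0.08 (SE 0.07, adjusted p = 0.356 by edgeR), and 3 mice were higher and 3 lower. Median-centred limma called it lower with TPM plus 1, given above, and with plus 5 (−0.77, adjusted p = 4.93e-05). With plus 0.1 limma put it at −0.22 and did not call it (adjusted p = 0.248). Vapa, the close relative of Vapb on the ER, was at −0.09 (SE 0.07, adjusted p = 0.280 by edgeR).

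The ratio of both partners within a library does not depend on scaling. Vapb TPM was 1.21 to 1.94 times Rmdn3 TPM in lysates, with a median of 1.51, and 0.394 to 0.624 times in WAM, with a median of 0.474. Vapb was thus the more abundant of the pair in every lysate and Rmdn3 in every WAM library. The difference was −1.65 on the log2 scale, seen in 6 of 6 mice (two-sided exact permutation p = 0.00217, the smallest that all assignments of 12 libraries can give; adjusted p = 0.0152 over 7 ratios). Without mouse 3, 4 or 6 the difference was −1.59, −1.72 and −1.69, at an adjusted p of 0.0556 by the same exact test. Without mouse 1, 2 or 5 the adjusted p by that test was 0.0370, 0.0278 and 0.0278. The unadjusted p was 0.00794 in each of these fits, the smallest that 5 libraries against 5 can give. The adjusted p thus differed only through the adjustment over 7 ratios, which depends on the other ratios. When labels were exchanged only within mice the adjusted p was 0.109, and these 64 assignments allow no p under 0.03125. Rmdn3 against Vdac1, a ratio chosen after its values were seen and given without a test, was 0.216 to 0.270 in lysates and 0.498 to 0.789 in WAM. Some other ratios chosen in this way did not overlap between fractions either, and more of them are given below. Itpr2 against Rmdn3 was 0.1775 to 0.372 in lysates and 0.0825 to 0.107 in WAM. The ratios of Rmdn3 to Bcap31 and of Vapb to Vapa did overlap. Rmdn3 against Bcap31, an ER-side contact protein, was 0.275 to 0.308 in lysates and 0.201 to 0.327 in WAM, higher in 1 mouse. Vapb against Vapa was 0.850 to 1.16 in lysates and 0.741 to 1.22 in WAM, higher in 2 mice.

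**Figure D2:**
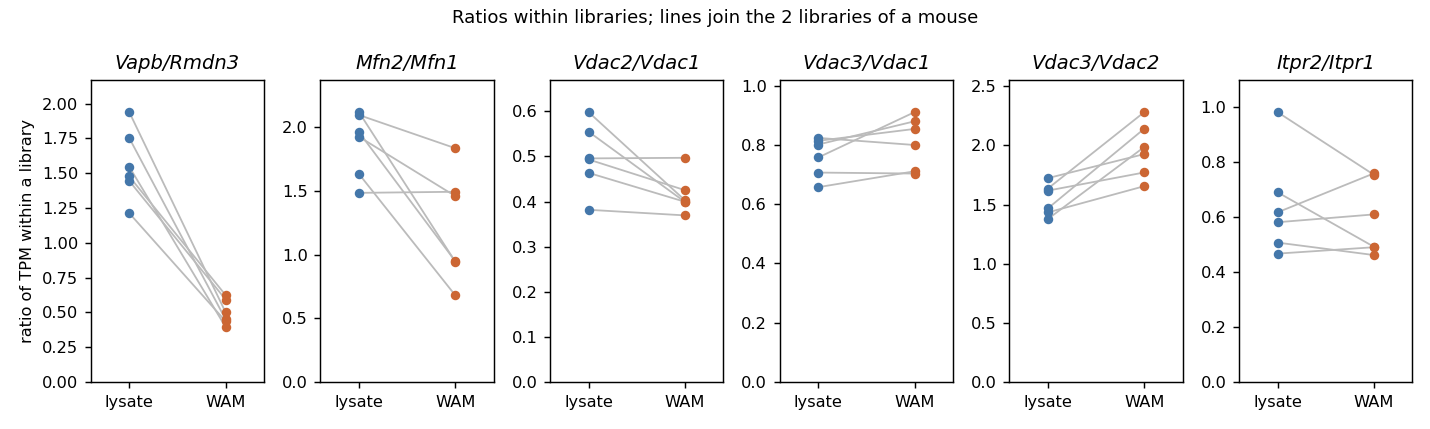
Ratio of the TPM of 2 mRNAs within a library (vertical axis, starting at 0) in lysate (blue) and WAM (orange), with lines joining the libraries of a mouse. Vapb over Rmdn3 falls from above 1.2 to below 0.63 in all mice, Vdac3 over Vdac2 rises in all, and Itpr2 over Itpr1 moves in both directions.

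The calcium release channels stayed near the typical mRNA. Itpr1 (ENSMUSG00000030102, chromosome 6, 108213096 to 108551109, plus strand) was at 37.4 CPM in the lowest, 39.9 in the median and 45.2 in the highest lysate library, and at 38.3, 46.0 and 50.5 CPM in WAM. The groups overlapped, and the log2 fold change was 0.15 (SE 0.08, adjusted p = 0.125 by edgeR), higher in 5 of 6 mice. Without WAM library 2 it was called higher at 0.20 (adjusted p = 0.0374). Itpr2 (ENSMUSG00000030287, chromosome 6, 146108299 to 146502223, minus strand) was at 29.9, 34.1 and 40.8 CPM in lysates and at 33.9, 42.3 and 47.5 CPM in WAM. Its groups overlapped too. The means were 34.5 ± 4.6 and 42.0 ± 5.1 CPM (SD, n = 6 each), which is 0.28 on the log2 scale (SE 0.10, adjusted p = 0.0307 by edgeR), higher in 5 of 6 mice. This call was lost in 5 of 6 fits without a mouse, all but the fit without mouse 2, with adjusted p up to 0.114, and in 7 of 12 fits without 1 library. It was also lost without a filter on low counts (adjusted p = 0.0737), and median-centred limma on TPM plus 1 put the value at −0.11.

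Both receptors have very long coding sequences, of 8250 bases for Itpr1 and 8106 for Itpr2, and with a length trend over all genes taken off they were called higher at 0.40 (adjusted p = 0.000858) and 0.62 (adjusted p = 0.000212 by edgeR). The difference between them was within the spread of libraries: Itpr2 TPM was 0.467 to 0.983 times Itpr1 TPM in lysates and 0.462 to 0.760 times in WAM. The log2 difference was −0.09, with 3 mice higher and 3 lower (two-sided exact permutation p = 0.660, adjusted p = 0.770). On counts the difference was 0.14, with 5 mice higher and 1 lower (exact permutation p = 0.158, adjusted p = 0.221). The count per TPM of Itpr2, relative to other genes a measure of the transcript length assigned to it, had a median of 3.18 in lysates and 4.77 in WAM, so its level per length and its counts differ between fractions. The third receptor gene, Itpr3, was listed at a mean of 0.245 TPM in lysates and 0.0870 TPM in WAM.

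The mitofusins differed from each other. Mfn1 (ENSMUSG00000027668, chromosome 3, 32529465 to 32579239, plus strand) was at 40.8 CPM in the lowest, 41.4 in the median and 44.6 in the highest lysate library, and at 42.0, 47.0 and 50.4 CPM in WAM. Its log2 fold change was 0.16 (SE 0.06, adjusted p = 0.0390 by edgeR), higher in 6 of 6 mice, with mouse 1 at 0.01. The groups overlapped, and the call was lost in 5 of 6 fits without a mouse, with adjusted p up to 0.263. It was held without mouse 1 and lost in 9 of 12 fits without 1 library. The call was also lost without a filter on low counts (adjusted p = 0.2115 by edgeR) and after a lysate filter of 5 TPM (adjusted p = 0.0601). Median-centred limma did not call Mfn1 and put it at 0.19 with TPM plus 1, 0.455 with plus 0.1 and −0.10 with plus 5. Mfn2 (ENSMUSG00000029020, chromosome 4, 147873599 to 147904704, minus strand) was at 81.9, 99.2 and 108 CPM in lysates and at 71.3, 85.2 and 94.0 CPM in WAM. Every WAM library was below the lysate of its own mouse, while the groups overlapped. The log2 fold change of −0.20 (SE 0.09) was not called (adjusted p = 0.0770 by edgeR), and with the mouse as a block it was called lower (adjusted p = 0.00803). It was also called lower without lysate 1, WAM 4 or WAM 5, with an adjusted p of at least 0.0383.

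Mfn2 TPM was 1.48 to 2.12 times Mfn1 TPM in lysates, with a median of 1.94, and 0.680 to 1.83 times in WAM, with a median of 1.203. The log2 difference was −0.68, lower in 5 of 6 mice (two-sided exact permutation p = 0.0130, adjusted p = 0.0303). Without mouse 2, 3, 4 or 6 it was −0.73, −0.56, −0.60 and −0.58, at an adjusted p of 0.0556 to 0.111 by the same exact test. On counts the difference was −0.36 (adjusted p = 0.0152). Exchanging labels within mice gave an adjusted p of 0.109 on TPM. The TPM of Mfn1 varied in WAM from 7.11 to 19.2, over 2-fold, where its CPM varied from 42.0 to 50.4. The count per TPM of Mfn1 was 1.28 to 1.43 in lysates and 0.701 to 1.64 in WAM. WAM libraries 3, 4 and 6 had the low values and WAM libraries 1, 2 and 5 the high ones, so Mfn1 levels per length are less certain than its counts.

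The 3 outer membrane channels had the highest lysate levels of the set per length, in TPM, but not in CPM, where Mfn2 and Vapb were above Vdac2 and Vdac3. They were not called in either direction in the main edgeR fit. Vdac1 (ENSMUSG00000020402, chromosome 11, 52360860 to 52389397, plus strand) was at 119 CPM in the lowest, 129 in the median and 149 in the highest lysate library, and at 108, 121 and 140 CPM in WAM. The groups overlapped although WAM was below lysate in 6 of 6 mice, by 0.01 to 0.18 on the log2 scale, and the fitted log2 fold change was −0.09 (SE 0.09, adjusted p = 0.414 by edgeR). Vdac2 (ENSMUSG00000021771, chromosome 14, 21825238 to 21845879, plus strand) was at 51.6, 56.1 and 62.5 CPM in lysates and at 41.4, 47.9 and 64.01 CPM in WAM. WAM library 6 was the highest of the 12, and WAM was lower in the 5 other mice. Its log2 fold change was −0.19 (SE 0.10, adjusted p = 0.129 by edgeR), and without mouse 6 it was −0.30 and it was called lower (adjusted p = 0.0126), as it was without WAM library 6 alone (adjusted p = 0.00999). With the mouse as a block Vdac2 was called lower as well (adjusted p = 0.0323). Vdac3 (ENSMUSG00000008892, chromosome 8, 22577075 to 22593813, minus strand) was at 60.7, 63.1 and 68.9 CPM in lysates and at 56.1, 62.0 and 75.1 CPM in WAM. Its log2 fold change was −0.00 (SE 0.08, adjusted p = 0.989 by edgeR), with 3 mice higher and 3 lower. With the length trend taken off, Vdac2 at −0.315 and Vdac3 at −0.196 were called lower (adjusted p = 0.0181 and 0.0472 by edgeR), and Vdac1 was not called. Median-centred limma on TPM plus 5 called all 3 channels lower, with Vdac3 at −0.70 (adjusted p = 0.000261).

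Within libraries, Vdac3 TPM was 1.38 to 1.72 times Vdac2 TPM in lysates and 1.66 to 2.28 times in WAM. The difference of 0.34 on the log2 scale was seen in 6 of 6 mice (two-sided exact permutation p = 0.00433, adjusted p = 0.0152). Without mouse 3, 4 or 6 it was 0.31, 0.30 and 0.38, at an adjusted p of 0.0556 by the same exact test. On counts it was 0.19 and missed the threshold (adjusted p = 0.0758 by the same exact test). The count per TPM of Vdac2 had a median of 0.681 in lysates and 0.761 in WAM. That of Vdac3 was 0.495 and 0.505, so part of the TPM difference lies in the length assigned to Vdac2. Exchanging labels within mice gave an adjusted p of 0.109. Vdac2 against Vdac1 went from a median of 0.494 to 0.401 (log2 difference −0.25, lower in 5 of 6 mice, exact permutation p = 0.0476, adjusted p = 0.0833). On counts that difference was −0.11, lower in 4 of 6 mice (exact permutation p = 0.2835, adjusted p = 0.331). Vdac3 against Vdac1 went from 0.780 to 0.827 (adjusted p = 0.446 by the same exact test). Itpr2 against Vdac1, the pair that faces each other across the gap, was at 0.0624 and 0.0634 (log2 difference 0.05, adjusted p = 0.805 by the same exact test). On counts the difference was 0.37, higher in 5 of 6 mice (exact permutation p = 0.0260, adjusted p = 0.0606), and on TPM plus 1 it was 0.30.

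**Figure D3:**
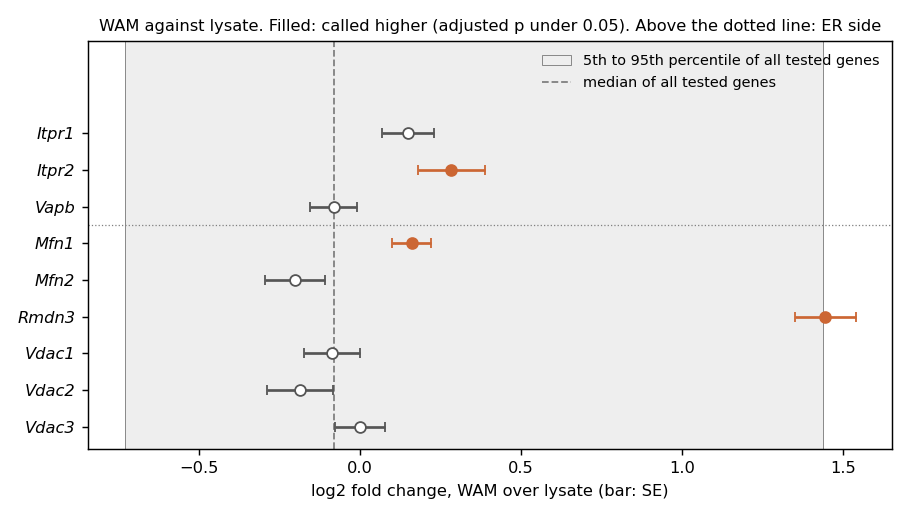
Log2 fold change of WAM over lysate with its SE (horizontal axis) for each mRNA, ER side above the dotted line; filled points were called higher, the grey band spans −0.73 to 1.44, the 5th to 95th percentile of all tested genes, and the dashed line is their median of −0.08. Rmdn3 at 1.45 lies at the edge of the band and the other 8 lie near its middle.

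Per length, the order of the means was the same in both fractions for the 8 genes other than Rmdn3. In lysates, mean TPM ran from Vdac1 at 142 ± 11 and Vdac3 at 108 ± 9.3 to Vdac2 at 70.6 ± 9.2, Vapb at 53.7 ± 6.5, Mfn2 at 48.8 ± 7.7, Rmdn3 at 34.6 ± 3.2, Mfn1 at 26.1 ± 2.3, Itpr1 at 14.1 ± 2.8 and Itpr2 at 8.88 ± 2.28 (SD, n = 6 each). The ranges of Vdac2 and Vapb, of Vapb and Mfn2, and of Itpr1 and Itpr2 overlapped. In WAM the mean was 46.4 ± 10.9 TPM for Vdac1, 37.5 ± 9.4 for Vdac3, 32.2 ± 6.6 for Rmdn3, 19.4 ± 5.9 for Vdac2, 15.9 ± 3.5 for Vapb, 14.3 ± 2.6 for Mfn2, 13.1 ± 5.3 for Mfn1, 4.93 ± 0.61 for Itpr1 and 2.92 ± 0.78 for Itpr2. There the ranges of all neighbours overlapped apart from Mfn1 and Itpr1. Rmdn3 thus went from rank 6 to rank 3, and it was above Vdac2 in 6 of 6 WAM libraries. Ranked by CPM, which is not per length, it went from 8 to 2.

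The share of the set's TPM held by Rmdn3 was 6.82% ± 0.20 in lysates and 17.4% ± 2.0 in WAM, while that of the 3 channels was 63.3% ± 1.2 and 55.1% ± 3.1 (SD, n = 6 each). The 3 ER-side genes held 15.2% ± 1.1 in lysates and 12.8% ± 1.0 in WAM. By counts, in which long mRNAs weigh more, they held 26.1% ± 0.9 and 25.4% ± 1.4.

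A second scale, the authors' own, divides WAM TPM by the rise of the mitochondrially encoded mRNAs of the same mouse, a coefficient of 2.84 to 6.40. The result, in percent of lysate TPM, reads as the part of an mRNA that comes along per unit of mitochondria. Computed in the same way here, it was 20.7% ± 8.1 for Rmdn3 and between 6.64% and 11.5% on average for the other 8 (SD, n = 6). Rmdn3 ran from 12.6% in mouse 5 to 33.7% in mouse 2. Mouse 2, which had the lowest coefficient, gave the highest value for 8 of the 9 genes, Itpr2 being the exception. The authors' deposited table of 1160 genes holds Vdac1 alone of the 9, at 7.50%, and the value computed here was 7.50%. Without division by the coefficient, WAM TPM in percent of the lysate TPM of the same mouse averaged 92.4% for Rmdn3 and 28.0% to 50.5% for the others.

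**Figure D4:**
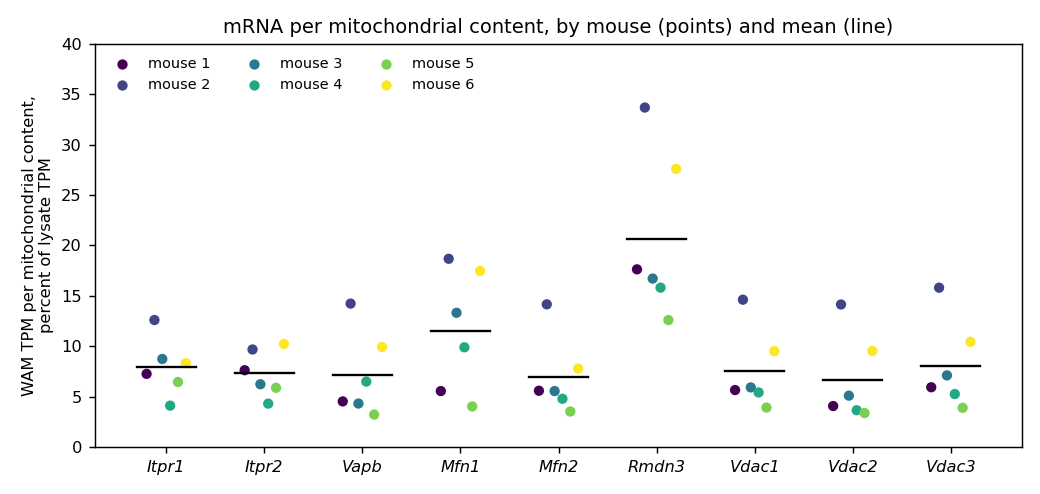
WAM TPM divided by the mouse's mitochondrial content coefficient, in percent of the lysate TPM of the same mouse (vertical axis), for each mRNA; points are mice and the line is their mean. Rmdn3 has the highest mean, 20.7%, and mouse 2 lies highest for every gene other than Itpr2.

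The 9 mRNAs sit among 73 other genes of contact sites and calcium handling, chosen by function in 5 lists, of which 63 were tested. The lists were drawn up with earlier results of these data known, so their counts beside the background are a description. Over all tested genes 29.5% were called higher and 28.8% lower, and the list counts below rest on the same centring. With library totals, the lists in the order given below had 7, 0, 0, 4 and 0 genes called higher and 9, 12, 10, 1 and 10 called lower; with the authors' coefficient all 63 were called lower. On the list of ER-side contact proteins 12 of 17 tested were called higher and 3 were called lower. The list's median on the log2 scale was 0.83, beside −0.08 for all tested genes. The highest were Emc1 at 1.62 (SE 0.17), a subunit of the complex that inserts membrane proteins, Bcap31 at 1.60 (SE 0.10), the ER partner of the fission factor Fis1, and Tmx1 at 1.58 (SE 0.12), an ER thioredoxin. Rrbp1, a receptor for ribosomes on rough ER sheets, had a value of 1.49 (SE 0.14) and the lipid-transfer tether Pdzd8 at 0.52 (SE 0.11). The 3 called lower were Osbpl8 (−0.50, SE 0.14), Mospd2 (−0.43, SE 0.17) and Acsl4 (−0.41, SE 0.12), of which Osbpl8 carries lipids and Mospd2 binds the same short motif as Vapb. The call of Mospd2 was lost without mouse 1, 3, 5 or 6, and in 9 of 12 fits without 1 library. With the length trend taken off, Osbpl8 (−0.22, adjusted p = 0.181) and Acsl4 (−0.22, adjusted p = 0.130 by edgeR) also lost their calls. Median-centred limma on TPM plus 1 called 5 genes of this list lower. Vapb at −0.08 therefore lay below the median of this list, and Rmdn3 at 1.45 lay within the range of its called members.

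On the mitochondrial side 5 of 15 tested genes were called higher and 3 were called lower, shares near or below those of all tested genes; the list's median was 0.18. Median-centred limma on TPM called 3 higher and 4 lower with plus 1, and 2 higher and 8 lower with plus 5. Miga2, an outer membrane protein that binds the VAP proteins as Rmdn3 does, was at 1.25 (SE 0.19), Tspo, a cholesterol-binding protein, at 1.02 (SE 0.07), and Miga1 at 0.77 (SE 0.23). Fis1 was at 0.43 (SE 0.10), a call lost with the length trend taken off (0.03, adjusted p = 0.812 by edgeR) and with median-centred limma on TPM plus 1 (0.11, adjusted p = 0.489). Immt, the core of the cristae junction complex, was lower at −0.60 (SE 0.10), Rhot1, which links mitochondria to motors, at −0.41 (SE 0.10), and Synj2bp, the partner of Rrbp1, at −0.25 (SE 0.07). In the pair of Rrbp1 and Synj2bp the ER member was thus the higher, and in the pair of Vapb and Rmdn3 the mitochondrial one. Rmdn3 TPM was 0.677 to 0.883 times Synj2bp TPM in lysates and 1.90 to 3.12 times in WAM, a ratio chosen after its values were seen and not tested.

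Of 11 cytosolic and lipid-transfer bridges 0 were called higher and 8 were called lower by edgeR; the list's median was −0.50. None of the 11 was higher at an unadjusted p under 0.05, DESeq2 and median-centred limma on TPM plus 1 called 0 higher, and limma on TPM plus 5 called 1 higher. With the authors' coefficient and the median taken off, 1 of the 11 was called lower. Vps13d, a bridge-like lipid transfer protein, was at −0.74 (SE 0.08), Pacs2, which sorts proteins to contact sites, at −0.68 (SE 0.09), and Ambra1, an autophagy regulator, at −0.66 (SE 0.09). Hspa9, the chaperone grp75 that joins inositol trisphosphate receptors to Vdac1, was at −0.44 (SE 0.09) and called lower, while Itpr1, Itpr2 and Vdac1 were not called lower by the same test.

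Of 9 tested ER calcium genes 8 were called higher and 0 were called lower by edgeR; the list's median was 1.39. None of the 9 was lower at an unadjusted p under 0.05, and DESeq2 and median-centred limma on TPM plus 1 called 0 lower. Tmbim6, a calcium leak protein, was at 1.68 (SE 0.13), Saraf, which shuts off store-operated entry, at 1.60 (SE 0.11), the luminal calcium buffer Calr at 1.54 (SE 0.16) and the calcium pump Atp2a2 at 1.25 (SE 0.22). The lowest of the 8 was at 1.09, well above Itpr2 at 0.28 and Itpr1 at 0.15. The gene not called was Itpr3, at 0.07 (SE 0.31). Median-centred limma called it higher, at 1.02 with TPM plus 1, 0.64 with plus 0.1 and 0.68 with plus 5 (adjusted p = 2.64e-08, 0.0251 and 2.25e-12). Its mean of 0.245 TPM in lysates and 0.0870 TPM in WAM lay under the pseudocounts of 1 and 5. At such levels the pseudocount and the median taken off set most of the value, so these calls do not show a rise of Itpr3. Itpr1 TPM was 0.102 to 0.211 times Atp2a2 TPM in lysates and 0.0466 to 0.0929 times in WAM, without overlap. For Itpr2 the ratio was 0.0582 to 0.207 in lysates and 0.0262 to 0.0701 in WAM, lower in each mouse with overlapping ranges. Both ratios were chosen after their values were seen and were not tested.

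Of 11 tested genes of mitochondrial calcium handling 4 were called higher and 1 was called lower, a share higher near that of all tested genes; the list's median was 0.04. With the mouse as a block 2 were called lower, and median-centred limma called 2 lower with TPM plus 1 and 4 with plus 5. Slc8b1, the sodium-calcium exchanger of the inner membrane, was at 1.14 (SE 0.17), the uniporter subunit Smdt1 at 0.83 (SE 0.09), and Letm1, an inner membrane cation exchanger, at 0.46 (SE 0.08). The uniporter pore gene Mcu was at 0.23 (SE 0.14) and was not called. Slc25a23, a calcium-regulated carrier of adenine nucleotides, was lower at −0.88 (SE 0.14). Another gene of this list was called lower without WAM library 5.

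**Figure D5:**
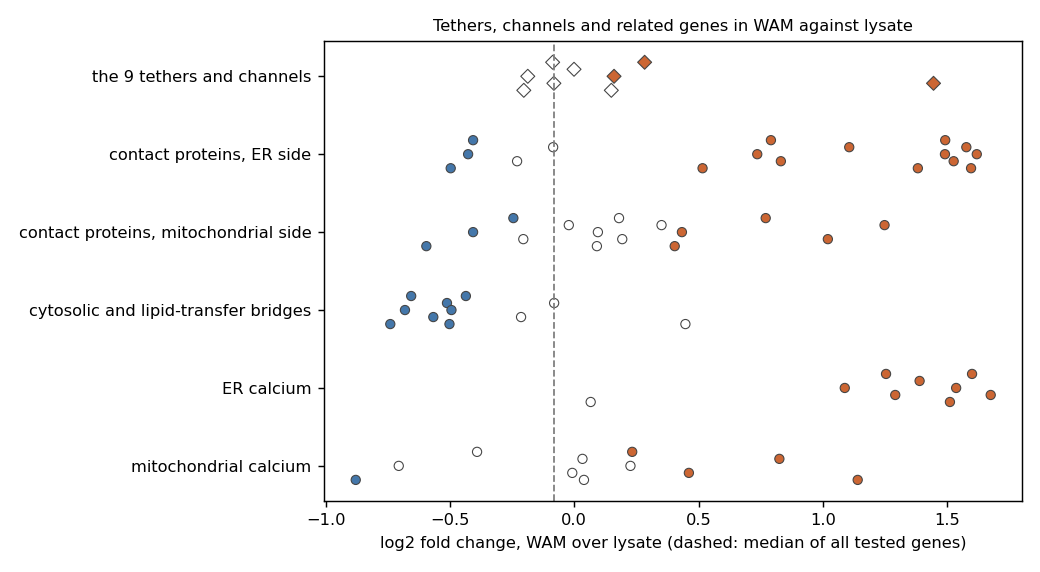
Log2 fold change of WAM over lysate (horizontal axis) of the 9 tethers and channels (diamonds, top) and of the tested genes of 5 lists (circles), orange where called higher, blue where called lower and white where not called. The genes of ER calcium other than Itpr3 lie at 1.09 or above, to the right of Itpr1 and Itpr2, and the called bridges all lie below −0.40.

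The mRNAs most like Rmdn3 over the 12 libraries, by Pearson correlation of log2 CPM, were Cnih4 (r = 0.994), a cargo receptor of ER export, and Adtrp (r = 0.993), a membrane hydrolase; both were themselves higher in WAM, at 1.13 and 1.59. These correlations hold the difference between fractions and carry no test. For the others the closest mRNA was Naa25 for Itpr1 (r = 0.912), Tmem2 for Itpr2 (r = 0.932), Jmjd4 for Vapb (r = 0.922), Banf1 for Mfn1 (r = 0.940), Tgm2 for Mfn2 (r = 0.958), Txnip for Vdac1 (r = 0.920), Vps36 for Vdac2 (r = 0.960) and Fra10ac1 for Vdac3 (r = 0.945). The 9 genes themselves, and genes with symbols starting with Gm and a digit or ending in Rik, were left out of this search.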

How the data were processed

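Directional libraries were built from 250 ng of poly(A)-selected RNA, per the labels' protocols. The deposited table of estimated counts per gene is not normalised, per the file headers, and the authors' second table gives TPM. Per the submitters' processing notes, the tools were kallisto 0.44.0, fastp 0.12.4, R 3.5.0 and DESeq2 1.20.0, with no roles; their genome build was not given in the sources used here. Another 60 per-sample columns went unused. The 48042 lines were reduced to 1 for each of 35498 genes, and counts were rounded (32.5% of non-zero counts were not whole, tolerance 1e-06).

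Genes were tested with edgeR 4.0.16 (quasi-likelihood F test, TMM, filterByExpr, 11181 genes; R 4.3.3) without the mouse in the model; calls had an adjusted p under 0.05 (Benjamini-Hochberg). The test and the exact test were tested on simulated data. DESeq2 1.42.0 and limma 3.58.1 were alternatives. The authors' enrichment is a percentage of lysate TPM after division by the coefficient, per the file headers. Ratios of TPM were compared by exact permutation over 7 ratios. Words of 31 bases came from GENCODE M21 transcripts (GRCm38), which need not be the authors' build, and coding sequences were aligned with mafft 7.526. Of 73 list symbols, 72 were found and 63 passed the count filter; the one not found was not analysed here.

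The columns name the mouse, so equal numbers mark 1 animal: gene-wise deviations from group means had r of 0.452 to 0.771 between fractions of a mouse and at most 0.404 between mice, and all 6 WAM libraries were closest to their own lysate. The genes and lists were chosen with earlier results of these data known. Named are the 9 genes, fixed partners, in each list the 3 highest and 3 lowest called genes, and the genes most alike over libraries; results for 2 other genes are not reported here. Every 2 libraries of a group differed beyond sampling noise (chi-square per degree of freedom at least 12.06).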

Additional observations from a re-analysis of the deposited data

Results flagged for a closer look

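In 2 of 18 groups (9 genes in 2 fractions) a library lay far from the others, and chance flags about 1 in 20. Mfn1 was at 44.6 CPM in lysate 4, with the next lysate at 42.0 CPM; the gap was 0.68 of the range. Vdac3 was at 68.9 CPM in lysate 6, with the next at 63.6 CPM and a gap of 0.65 of the range; both exceed Dixon's 95% critical value for 6 samples. Without lysate 4 the call of Mfn1 as higher in WAM was held, and without lysate 6 Vdac3 was not called, as in the full data.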

How the results depend on the processing

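Rmdn3 stayed called higher in all 32 other fits except that with the authors' coefficient, and the directions of most other genes rest on centring at the typical mRNA. Scalings that do not centre lower every log2 fold change by construction. Library totals called 1 of the 9 higher and 8 lower (all tested genes: 510 higher, 8649 lower); totals without mitochondrially encoded genes called 1 and 8 (1121 and 8056); the authors' coefficient called 0 and 9 (6 and 11152). With the median taken off, library totals called 2026 of all genes lower, and the coefficient called 303 lower and 1 of the 9 higher; limma on TPM plus 0.1 called 1438 lower.

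Library totals turned Itpr1 to −0.97, Itpr2 to −0.83, Mfn1 to −0.95, Pdzd8 to −0.61, Fis1 to −0.67, Tspo to −0.091, Miga1 to −0.38, Itpr3 to −1.05, Mcu to −0.88, Smdt1 to −0.28 and Letm1 to −0.65. Totals without mitochondrially encoded genes turned Itpr1 to −0.72, Itpr2 to −0.58, Mfn1 to −0.70, Pdzd8 to −0.36, Fis1 to −0.43, Miga1 to −0.11, Itpr3 to −0.80, Mcu to −0.64, Smdt1 to −0.038 and Letm1 to −0.41. The coefficient turned Rmdn3 to −1.85, Itpr1 to −3.16, Itpr2 to −3.04, Mfn1 to −3.10, Pdzd8 to −2.81, Bcap31 to −1.69, Rrbp1 to −1.83, Emc1 to −1.76, Tmx1 to −1.77, Fis1 to −2.80, Tspo to −2.25, Miga1 to −2.63, Miga2 to −2.14, Itpr3 to −3.31, Atp2a2 to −2.12, Calr to −1.81, Tmbim6 to −1.63, Saraf to −1.72, Mcu to −3.01, Smdt1 to −2.43, Letm1 to −2.79 and Slc8b1 to −2.09. Median-centred limma on TPM put Itpr2 at −0.11 (plus 1), −0.022 (plus 0.1) and −0.069 (plus 5), and with plus 5 Mfn1 at −0.10, Fis1 at −0.31 and Letm1 at −0.11; the cause was not tested. A sign change between values of which neither was called was not counted as a reversal.

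Of the 9, 1 was called higher without a filter on low counts and with limma on TPM plus 1, 0.1 and 5; limma called 4 (plus 1) and 5 (plus 5) lower, 1 was lower after a lysate filter of 5 TPM, and 2 after the length trend was removed. Without a library or a mouse, 1 to 4 were called higher and 0 to 1 lower. With the mouse as a replicate block 2 were lower, the block changed no other call of the 9, and of the other named genes it also called Mcu higher at 0.23. Within-mouse exchange (block by mouse) left the log2 differences at −0.68 for Mfn2/Mfn1, 0.34 for Vdac3/Vdac2 and −1.65 for Vapb/Rmdn3, all at an adjusted p of 0.109. Without a mouse they ranged from −0.81 to −0.56, 0.30 to 0.38 and −1.73 to −1.59, and calls were lost at an adjusted p of 0.0556 to 0.111. With 5 libraries against 5 no p can be under 0.00794, the value of Vapb/Rmdn3 in each fit without a mouse. Whether its call was kept there depended on the other ratios, through the adjustment over 7 ratios. On counts plus 0.5, Vdac3/Vdac2 was 0.19. By counts, the ER side held 26.1% in lysates and 25.4% in WAM, and by CPM Rmdn3 ranked 8 and 2. At this depth 9 list genes fell below the count filter and were not tested.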
